A study of Mus musculus with 6 samples.

Results

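Potassium channels are assembled from pore-forming alpha subunits and auxiliary subunits, and most genes of both kinds carry symbols that start with Kcn. Every gene row with such a symbol was taken, except the inward rectifiers Kcnj8, Kcnj10, Kcnj13 and Kcnj16 and the non-coding transcripts named after a Kcn gene. This left 90 of the 98 Kcn rows among 36210 gene rows, and 78 of the 90 passed the filter on low counts under which 20363 genes were tested. The AVE0991 libraries came from 8-month-old APP/PS1 mice given AVE0991, an agonist of the angiotensin-(1-7) receptor Mas, by intraperitoneal injection of 10 mg per kg once daily for 30 days. The vehicle libraries came from APP/PS1 mice of that age given 0.9% sterile saline on the same schedule. APP/PS1 mice carry mutant human amyloid precursor protein and presenilin transgenes and form amyloid plaques, and both groups carried them, so no library came from a mouse without the transgenes. Each group had 3 libraries of RNA labelled as from brain astrocytes. Whether each library had an animal of its own is not stated, so any p-value reflects spread among these 6 libraries, which may be technical.

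Potassium channels set the resting potential, end the action potential and limit repetitive firing. In neurons, voltage-gated alpha subunits repolarise the membrane, KCNQ subunits carry the M-current that restrains firing, and calcium-activated channels follow calcium entry. Inward rectifiers and tandem-pore subunits hold the membrane near the potassium equilibrium potential, in astrocytes as well as in neurons. Auxiliary subunits have no pore and change the gating or the trafficking of the alpha subunits they bind.

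The selectivity filter of the pore is a short glycine-rich signature that nearly all alpha subunits share. In the longest GENCODE M21 coding transcripts (GRCm38), 73 of the 90 genes encoded this signature, 14 of them (the tandem-pore group) at 2 places, and the 17 auxiliary genes encoded none. The coding strand around it is shown for 6 of the genes described by library further on, with lower or higher values in AVE0991 libraries, with the 15 filter bases in capitals. Kcnh7, Kcnq3, Kcnc2 and Kcnma1 had lower counts in all 3 AVE0991 libraries than in any vehicle library, and none of the 6 genes passed edgeR's test, given further on.
Kcnh7: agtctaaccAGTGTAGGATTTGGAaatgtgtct
Kcnq3: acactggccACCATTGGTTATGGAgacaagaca
Kcnc2: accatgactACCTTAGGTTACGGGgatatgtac
Kcnma1: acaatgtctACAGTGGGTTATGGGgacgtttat
Kcng4 and Kcnk10 had higher counts in AVE0991 replicates 2 and 3 but not in replicate 1, and Kcnk10 is shown at its first filter.
Kcng4: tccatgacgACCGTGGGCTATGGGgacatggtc
Kcnk10: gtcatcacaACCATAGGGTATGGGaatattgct
At the third base of the 5 filter codons, Kcnh7 has 0 G or C, Kcnq3 has 1, Kcnma1 has 2, Kcnc2 and Kcnk10 have 3, and Kcng4 has 4. Over the whole coding sequence, the GC content at the third base was 47.0% in Kcnh7, 59.8% in Kcnq3, 60.4% in Kcnk10, 60.9% in Kcnma1, 63.6% in Kcnc2 and 80.8% in Kcng4. The median over the 90 genes was 69.4%, with a range of 43.8% to 93.3%.

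Gene rows held 44583296 to 50066692 counts per library, of which 0.555% lay on the 90 genes. Although the label is astrocytes, all 6 markers of neurons in general were found in every library, with a median level of 187 FPKM, against 99.8 FPKM for the 9 astrocyte markers. The astrocyte markers summed to 6316, 7250 and 7824 CPM in AVE0991 libraries and to 5597 to 6965 CPM in vehicle libraries. Of the 9, 8 had a log2 fold change above 0, with a list median of 0.64. The exception was Slc1a2 (-0.32), the largest part of the CPM sums. AVE0991 replicates 2 and 3 stood apart from the other 4 libraries in cerebellar markers. The 9 markers of cerebellar granule cells summed to 258, 2217 and 2161 CPM in AVE0991 replicates 1, 2 and 3, against 231 to 280.4 CPM in vehicle libraries, and 7 of the 9 were above the other 4 libraries only in replicates 2 and 3. The 5 Purkinje cell markers summed to 1039, 2443 and 3668 CPM in the AVE0991 libraries, against 746 to 981 CPM in vehicle libraries. The 7 markers of cortical and hippocampal excitatory neurons summed to 5290, 1496 and 4791 CPM in AVE0991 libraries, compared with 3403 to 6113 CPM in vehicle libraries, so replicate 2 was the lowest. Striatal markers summed to 1378, 388 and 408 CPM in AVE0991 libraries and to 503 to 1106 CPM in vehicle libraries. AVE0991 replicates 2 and 3 thus had the lowest sums, but single striatal markers overlapped. Penk had 73.5 CPM in AVE0991 replicate 2 and 60.9 CPM in vehicle replicate 1. Oligodendrocyte markers summed to 5470, 11782 and 5851 CPM in AVE0991 libraries and to 3609 to 7876 CPM in vehicle libraries, so replicate 2 was the highest. The vehicle libraries were uneven too: choroid plexus markers summed to 131.8, 1371 and 759.6 CPM in them. In AVE0991 libraries that list summed to 370.4, 538.9 and 372.3 CPM. None of these markers passed edgeR's test at an adjusted p under 0.05, but DESeq2 called 7 of the 9 granule cell, 4 of the 5 Purkinje cell and 5 of the 9 astrocyte markers, all higher in AVE0991. At an unadjusted p under 0.05 edgeR gave 7, 4 and 6 of them. No marker was at 0 in any library. In such bulk RNA, fewer cells of a type and less RNA per cell cannot be told apart.

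None of the 78 genes passed the test between AVE0991 and vehicle libraries, either higher or lower (edgeR's quasi-likelihood F test with Benjamini-Hochberg adjustment over all genes, adjusted p under 0.05), against 0.0344% of all genes called higher and 0.83% called lower. At an unadjusted p under 0.05, 11 genes were higher and 11 lower, or 14.1% each way, against 10.9% and 12.7% of all genes. DESeq2, with the same threshold on its adjusted p, called 5 genes higher, among them Kcnk10, Kcnk12, Kcnj12 and Kcnt1, and 7 lower, Kcnh7, Kcnq3, Kcnc2, Kcnmb2, Kcnip4, Kcnma1 and Kcnq5. Of all genes, DESeq2 called 5.39% higher and 7.11% lower. With AVE0991 replicate 1 left out, edgeR called 12 genes higher and 11 lower, against 6.63% and 4.76% of all genes, while leaving out any other single library gave 0 calls among the 78. The median log2 fold change was -0.10 over the 78 genes and -0.0069 over all genes tested, with 34 genes above 0 and 44 below. The median channel gene differed from the vehicle mean by -0.13, -0.11 and -0.19 log2 CPM in AVE0991 replicates 1, 2 and 3. Over all genes tested, these medians were -0.0037, -0.0039 and -0.0096. The vehicle libraries, which are part of that mean and so drawn toward it, gave 0.00, -0.06 and 0.05 for the channel genes. The AVE0991 libraries were the more variable group for 59 of the 78 genes (75.6%, against 66.9% of all genes).

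**Figure D1:**
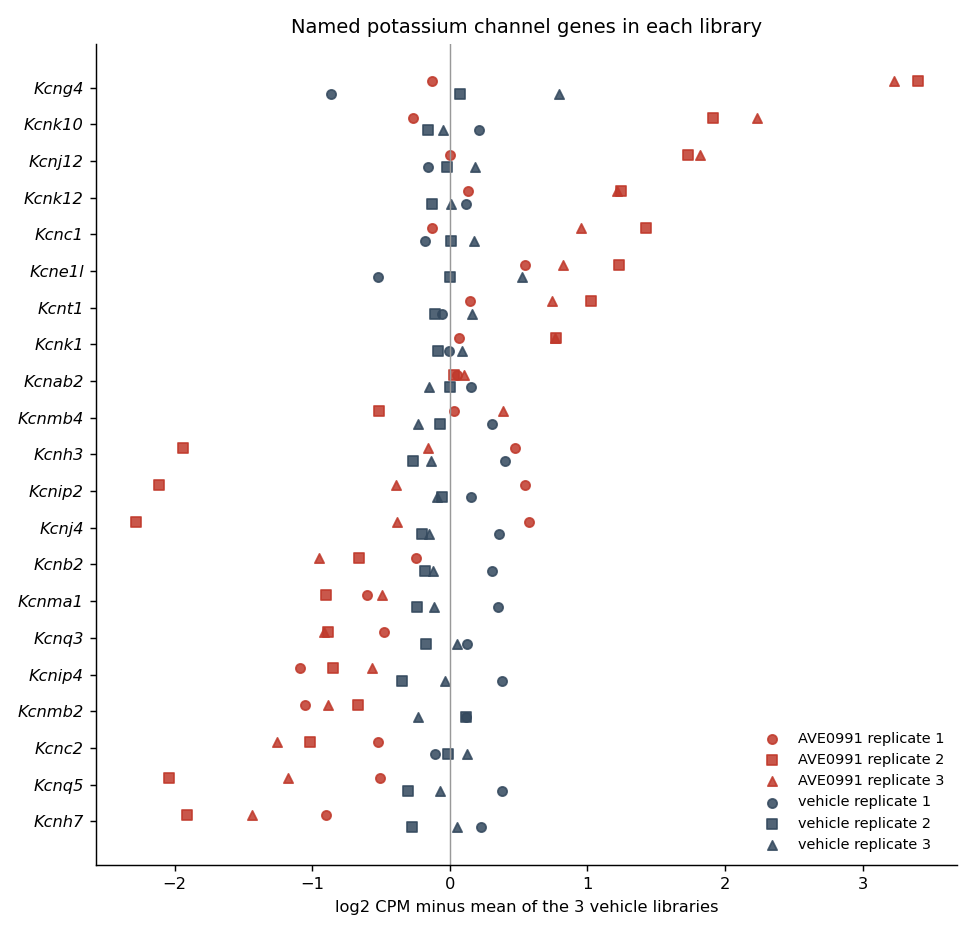
Each row is a named gene and each point a library, placed on the x axis at its log2 CPM minus the mean of the 3 vehicle libraries (red, AVE0991; dark blue, vehicle; marker shape, replicate). For Kcng4, Kcnk10 and Kcnj12 AVE0991 replicates 2 and 3 lie far right of the other 4 libraries, while for Kcnh7 all 3 AVE0991 libraries lie left of the vehicle libraries.

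Among the 17 voltage-gated alpha subunits (Kcna, Kcnb, Kcnc and Kcnd), 15 were tested, 8 had a log2 fold change above 0 and 7 below, and the median log2 fold change was 0.00. The Kcnc subfamily, whose fast delayed rectifiers allow neurons to fire at high rates, held values in both directions. Kcnc1 had 195, 572 and 414 CPM in AVE0991 libraries and 188, 214 and 241 CPM in vehicle libraries, with replicate 1 inside the vehicle range and replicates 2 and 3 above it. The fitted log2 fold change was 0.88 ± 0.36 (SE; adjusted p = 0.206 in edgeR's test), and -0.13 with replicates 2 and 3 left out. Kcnc2, expressed in fast-spiking inhibitory neurons among others, had 96.6, 68.7 and 58.2 CPM in AVE0991 libraries, compared with 129, 138 and 151 CPM in vehicle libraries. All 3 AVE0991 libraries lay below all 3 vehicle libraries, and the log2 fold change was -0.90 ± 0.19 (SE; adjusted p = 0.0803 in edgeR's test). Kcnb2, a slow delayed rectifier, had 28.1, 21.1 and 17.1 CPM in AVE0991 libraries and 41.0, 29.4 and 30.5 CPM in vehicle libraries, with no overlap. Its log2 fold change was -0.61, and -0.09 after correction for GC content. Kcna1 and Kcna2, the axonal subunits of this group, were chosen here after their values were seen, because AVE0991 replicate 2 stood above the other 5 libraries for both. Kcna1 had 152, 433 and 221 CPM in AVE0991 libraries and 188 to 231 CPM in vehicle libraries. Kcna2 had 159, 400.1 and 220.2 CPM in AVE0991 libraries and 217 to 270.3 CPM in vehicle libraries.

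The 10 silent modifiers (Kcnf, Kcng, Kcns and Kcnv) form no channel alone and join Kcnb subunits, whose gating they shift. Of the 9 tested, 8 had a log2 fold change below 0, and the median over the 9 was -0.47. The median difference from the vehicle mean was -0.13, -1.15 and -0.26 log2 CPM in AVE0991 replicates 1, 2 and 3, and the median log2 fold change was -0.23 without replicates 2 and 3. The exception was Kcng4, which had 15.6, 181 and 160.1 CPM in AVE0991 libraries, compared with 9.32, 17.9 and 29.6 CPM in vehicle libraries. Its log2 fold change of 2.65 ± 0.88 (SE; adjusted p = 0.149 in edgeR's test) had the largest size among the 78 genes, but the difference lay in replicates 2 and 3, and without them the value was -0.28. Kcnv1 and Kcnf1 were chosen after their values were seen. Kcnv1 had 35.1, 7.68 and 24.1 CPM in AVE0991 libraries and 53.1, 36.1 and 45.7 CPM in vehicle libraries, with no overlap. Kcnf1 had 101, 21.3 and 62.0 CPM in AVE0991 libraries and 118, 80.6 and 73.8 CPM in vehicle libraries, so that replicate 2 was the lowest for both.

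Of the 8 EAG, ERG and ELK subunits (Kcnh), 4 had a log2 fold change above 0 and 4 below, with a median of -0.10. Kcnh7, an ERG-type subunit of neurons, had the smallest p of all 78 genes. It had 46.0, 22.7 and 31.5 CPM in AVE0991 libraries, compared with 100.3, 70.9 and 88.8 CPM in vehicle libraries. All 3 AVE0991 libraries lay below all 3 vehicle libraries, with means of 33.4 ± 11.8 CPM in AVE0991 and 86.7 ± 14.8 CPM in vehicle libraries (SD, n = 3 each). The log2 fold change was -1.37 (SE 0.27), with an edgeR adjusted p of 0.0706 and a DESeq2 adjusted p of 0.000216. It was -0.90 with replicates 2 and 3 left out and -0.88 after correction for GC content. Exons of Kcnh7 overlap those of Gca on the opposite strand over 696 bases, and the sources used here do not state whether counting was by strand. Kcnh3, the ELK-type subunit with the highest level in this group, had 164, 30.8 and 106 CPM in AVE0991 libraries and 157, 98.5 and 108 CPM in vehicle libraries. Only replicate 2 was outside the range of the others by a wide margin.

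KCNQ subunits gave 3 of 5 log2 fold changes below 0, and the summed level of the group was 97.1, 69.9 and 79.0 FPKM in AVE0991 libraries, against 122, 98.2 and 105 FPKM in vehicle libraries. Kcnq3 and Kcnq5 can co-assemble in M-channels. Kcnq3 had 118, 89.0 and 87.0 CPM in AVE0991 libraries, compared with 179, 146 and 170.3 CPM in vehicle libraries, a log2 fold change of -0.75 ± 0.15 (SE; adjusted p = 0.0716 in edgeR's test). Kcnq5 had 78.2, 27.0 and 49.2 CPM in AVE0991 libraries, compared with 145, 90.2 and 106 CPM in vehicle libraries, a log2 fold change of -1.14 ± 0.38 (SE; adjusted p = 0.151 in edgeR's test). For both genes the groups did not overlap. GC correction left the value for Kcnq5 at -1.14 and gave -0.60 for Kcnq3.

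The calcium- or sodium-activated subunits (Kcnma, Kcnn, Kcnt and Kcnu) numbered 8, of which 6 had a log2 fold change below 0. Kcnma1, the pore-forming subunit of the large-conductance BK channel, had 236, 192 and 254 CPM in AVE0991 libraries, compared with 457, 304 and 330.1 CPM in vehicle libraries. The groups did not overlap, and the log2 fold change was -0.68 ± 0.19 (SE; adjusted p = 0.119 in edgeR's test). It was -0.61 with replicates 2 and 3 left out. Exons of Kcnma1 overlap the transcript 4930519K11Rik on the opposite strand over 1016 bases, and those of Kcnk1 overlap Gm45875 over 179, Kcnq5 Gm26580 over 167 and Kcnip4 5730480H06Rik over 105 bases, all on opposite strands. Kcnt1, a sodium-activated subunit, had 79.5, 147 and 119.9 CPM in AVE0991 libraries, compared with 69.1, 66.7 and 80.5 CPM in vehicle libraries. Its log2 fold change of 0.68 ± 0.22 (SE; adjusted p = 0.144 in edgeR's test) was 0.15 without replicates 2 and 3.

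The inward rectifiers analysed here were 11, of which 9 were tested, with 5 log2 fold changes above 0 and 4 below. Kcnj12 and Kcnj4 both encode strong inward rectifiers that stabilise the resting potential. Kcnj12 had 21.6, 71.8 and 76.2 CPM in AVE0991 libraries, compared with 19.3, 21.3 and 24.5 CPM in vehicle libraries, a log2 fold change of 1.38 ± 0.44 (SE; adjusted p = 0.141 in edgeR's test). Replicate 1 lay inside the vehicle range, and the value without replicates 2 and 3 was 0.00. Kcnj4 had 124, 17.1 and 63.9 CPM in AVE0991 libraries and 106, 72.5 and 74.9 CPM in vehicle libraries, with the lowest value in replicate 2 and the highest in replicate 1. Kcnj1 and Kcnj15 were not tested, with at most 2 and 9 counts in any library.

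The tandem-pore subunits (Kcnk), which carry background potassium current, had the highest median log2 fold change of the 8 groups, 0.22 over the 10 genes tested, with 7 above 0 and 3 below. Without AVE0991 replicates 2 and 3 that median was -0.03. The group summed to 112, 195 and 173 FPKM in AVE0991 libraries, against 105, 108 and 121 FPKM in vehicle libraries. Kcnk10, a mechanosensitive and lipid-sensitive TREK-type subunit, had 15.1, 68.4 and 85.4 CPM in AVE0991 libraries, compared with 21.0, 16.3 and 17.5 CPM in vehicle libraries. Its log2 fold change was 1.62 ± 0.57 (SE; adjusted p = 0.160 in edgeR's test), and -0.27 without replicates 2 and 3. Kcnk12, a THIK-type subunit, had 15.1, 32.7 and 32.1 CPM in AVE0991 libraries and 15.0, 12.6 and 13.9 CPM in vehicle libraries. Its groups did not overlap, though AVE0991 replicate 1 and vehicle replicate 1 lay close together, and the log2 fold change was 0.94 ± 0.29 (SE; adjusted p = 0.134 in edgeR's test). Kcnk1, a TWIK-type subunit present in astrocytes and neurons, had 83.4, 136 and 135 CPM in AVE0991 libraries and 79.5, 75.2 and 84.7 CPM in vehicle libraries. Its replicate 1 lay inside the vehicle range.

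The auxiliary genes (Kcnab, Kcne, Kcnip, Kcnmb and Kcnrg) numbered 17, of which 14 were tested, 5 with a log2 fold change above 0 and 9 below. Kcnip4, a calcium-binding partner of Kcnd subunits, had 39.7, 47.0 and 57.1 CPM in AVE0991 libraries, compared with 110.1, 66.6 and 82.7 CPM in vehicle libraries. The groups did not overlap, the log2 fold change was -0.85 ± 0.21 (SE; adjusted p = 0.106 in edgeR's test), and replicate 1 was the lowest of the AVE0991 libraries, so that the value was -1.11 without replicates 2 and 3. Kcnip2, of the same family, had 136, 21.6 and 71.1 CPM in AVE0991 libraries and 104, 89.6 and 87.7 CPM in vehicle libraries, with replicate 1 the highest and replicate 2 the lowest of all 6. Kcnmb2, which inactivates the BK channel, was scarce, with 1.48, 1.94 and 1.66 CPM in AVE0991 libraries and 3.37, 3.37 and 2.63 CPM in vehicle libraries. Its log2 fold change was -0.89 ± 0.21 (SE; adjusted p = 0.0970 in edgeR's test), and -1.07 without replicates 2 and 3. Kcnmb4, the main BK partner in brain, had 38.5, 26.4 and 49.5 CPM in AVE0991 libraries and 46.7, 35.9 and 32.2 CPM in vehicle libraries. It overlaps the antisense transcripts Kcnmb4os1 and Kcnmb4os2, so its counts are uncertain. Kcne1l, a single-span regulatory subunit, had 9.79, 15.8 and 11.9 CPM in AVE0991 libraries and 4.65, 6.69 and 9.62 CPM in vehicle libraries, with no overlap and a log2 fold change of 0.84 ± 0.30 (SE; adjusted p = 0.162 in edgeR's test). Kcnab2, the beta subunit of Kcna channels, averaged 618 ± 16.6 CPM in AVE0991 libraries and 594 ± 62.1 CPM in vehicle libraries (SD, n = 3 each), a difference smaller than the spread between the vehicle libraries. Its log2 fold change was 0.06, and -0.15 after correction for GC content. Its exons overlap Gm16334 on the same strand over 125 bases, so its counts are uncertain there.

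Levels were compared between genes by the deposited FPKM values, which account for length. Of the 90 genes, 69 averaged at least 1 FPKM and 42 at least 10 FPKM over the 6 libraries. Kcnab2 was the highest at 170.1 FPKM, and among the next were Kcnc1 at 55.8, Kcnk1 at 43.4, Kcnmb4 at 40.7, Kcnip4 at 36.6 and Kcnip2 at 36.3 FPKM. Kcnc1 had 33.5, 109 and 73.2 FPKM in AVE0991 libraries, against 32.6, 40.2 and 46.4 FPKM in vehicle libraries. Kcnk1 had 37.0, 57.5 and 57.2 FPKM in AVE0991 libraries and 35.6, 34.7 and 38.6 FPKM in vehicle libraries, so their order differed between libraries. Auxiliary subunits summed to 394, 331 and 371 FPKM in AVE0991 libraries and to 440.2, 389 and 381 FPKM in vehicle libraries. Voltage-gated alpha subunits summed to 246, 531 and 379 FPKM in AVE0991 libraries and to 294, 300.1 and 333 FPKM in vehicle libraries. The 12 genes that were not tested, among them Kcnk16 with 0 counts, had at most 25 counts in any library.

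**Figure D2:**
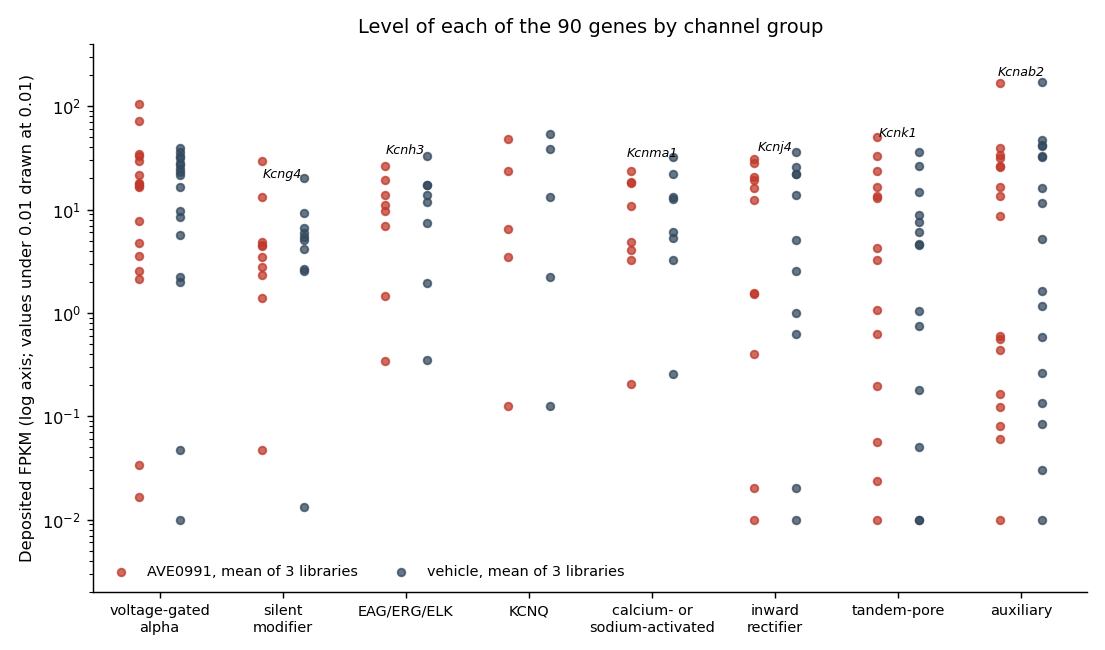
Deposited FPKM on a log axis for each of the 90 genes by channel group, as the mean of 3 AVE0991 libraries (red, left) and of 3 vehicle libraries (dark blue, right), with the most abundant gene named in 6 of the groups. Kcnab2 is the highest gene, near 170.1 FPKM on average, and every group has a gene under 1 FPKM.

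Sorted by which libraries differed, the genes formed patterns that were defined after the values were seen. In the first, all 3 AVE0991 libraries lay outside the range of all 3 vehicle libraries: 2 genes (2.56%) were higher in AVE0991, Kcne1l and Kcnk12, against 14.3% of all genes, and 12 were lower, against 16.3% of all genes. These 12 were 15.4% of the 78: Kcnh7, Kcnq3, Kcnq5, Kcnip4, Kcnmb2, Kcnma1, Kcnt2, Kcnv1, Kcnk4, Kcnc2, Kcna4 and Kcnb2. In the second, AVE0991 replicates 2 and 3 alone lay outside the other 4 libraries. They lay above for 14 genes (17.9%, against 11.2% of all genes), which included Kcnc1, Kcnc4, Kcnd2, Kcng4, Kcnj12, Kcnk1, Kcnk3, Kcnk10 and Kcnt1. They lay below for 15 genes (19.2%, against 8.88% of all genes), which included Kcnf1, Kcnip2, Kcnj2, Kcnj4, Kcns1 and Kcns2. In the third, replicate 2 was more than 1.5-fold below every other library, for 10 genes (12.8%, against 5.64% of all genes). These were Kcnh3, Kcnh4, Kcnq5, Kcnip2, Kcnt2, Kcnj4, Kcnf1, Kcnv1, Kcns2 and Kcng3.

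**Figure D3:**
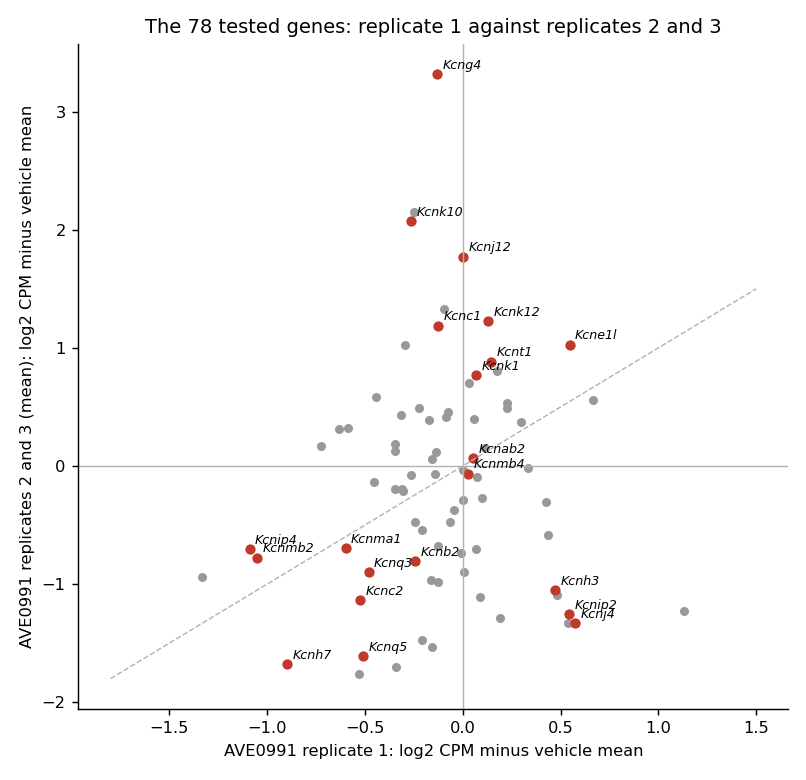
Each point is one of the 78 tested genes, with AVE0991 replicate 1 on the x axis and the mean of AVE0991 replicates 2 and 3 on the y axis, both as log2 CPM minus the vehicle mean (red, named genes; dashed line, equal values). Kcng4, Kcnk10 and Kcnj12 lie near 0 on the x axis and high on the y axis, while Kcnh7, Kcnip4 and Kcnmb2 are below 0 on both.

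The libraries in which Kcng4, Kcnj12 and Kcnk10 were high, AVE0991 replicates 2 and 3, were those with the high sums of cerebellar granule and Purkinje cell markers. The library in which Kcnip2, Kcnj4 and Kcnh3 were lowest, AVE0991 replicate 2, was the one with the lowest sum of cortical and hippocampal markers. It also had the lowest striatal sum, 388 CPM, with replicate 3 near it at 408 CPM. Kcnip2, Kcnj4, Kcnh3 and the striatal sum were highest in AVE0991 replicate 1, but the cortical and hippocampal sum was highest in vehicle replicate 1. The part of these cell types in the differences was not tested. Without replicates 2 and 3, the 12 genes lower in all 3 AVE0991 libraries had log2 fold changes below 0, of unequal size. Their sign was fixed by how the genes were picked, since AVE0991 replicate 1 lay below all vehicle libraries for each. The value was -1.11 for Kcnip4, -1.07 for Kcnmb2 and -0.61 for Kcnma1, near or beyond that with all libraries. It was closer to 0 for Kcnh7 (-0.90), Kcnq5 and Kcnt2 (-0.53 each), Kcnc2 (-0.52), Kcnq3 (-0.48), Kcnv1 (-0.35), Kcnb2 (-0.25), Kcnk4 (-0.20) and Kcna4 (-0.15), each over 1.5 times smaller in size than with all libraries. Among the 2 genes higher in all 3, Kcne1l stood at 0.49 and Kcnk12 at 0.14, with the sign fixed in the same way.

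**Figure D4:**
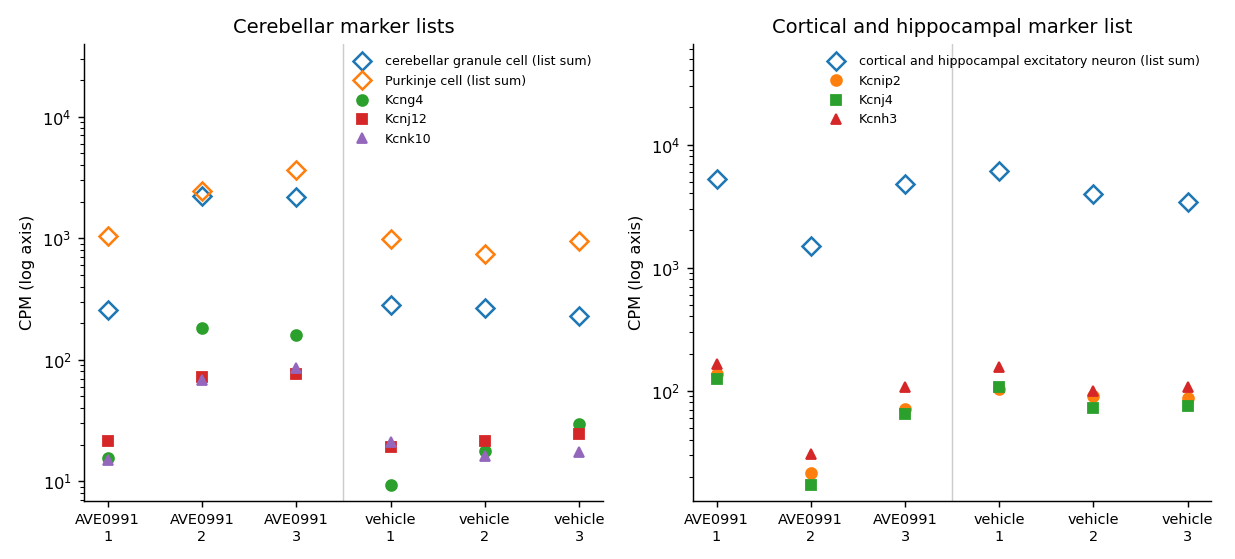
CPM on a log axis in each of the 6 libraries, with AVE0991 left of vehicle, for the summed cerebellar marker lists and 3 channel genes (left panel) and for the summed cortical and hippocampal list and 3 channel genes (right panel). In the left panel AVE0991 replicates 2 and 3 are the high libraries, and in the right panel AVE0991 replicate 2 is the low one.

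Fold changes also varied with the GC content of the transcript. Across genes, which are not independent replicates, Spearman's rho between log2 fold change and GC content of the longest transcript was 0.516 over the 78 genes and 0.499 over 16858 genes tested. Of the 15 channel genes with at most 45% GC, 14 had a log2 fold change below 0 (93.3%, against 81.4% of all genes in that range), with a median log2 fold change of -0.65, against -0.32 for all genes in that range. The 35 genes with 45% to 55% GC had a median of -0.14, against 0.06 for all genes. The 28 genes above 55% GC had a median of 0.16, against 0.19 for all genes. Kcnh7 at 39.6%, Kcnb2 at 39.3%, Kcnmb2 at 40.1% and Kcnip4 at 40.1% GC were in the lowest range, and Kcng4 at 57.4% GC in the highest. After a per-library correction for GC content, the channel genes had medians of -0.32, -0.19 and -0.04 in the 3 ranges, and rho was 0.265. All genes in those ranges then had medians of -0.00072, -0.0044 and -0.014, since the correction removes their trend by design. The corrected log2 fold changes were -0.41 for Kcnip4 and -0.45 for Kcnmb2, against 2.43 for Kcng4. Without AVE0991 replicates 2 and 3, which leaves a single AVE0991 library, rho over the 78 genes was 0.467. What links GC content to the libraries was not tested.

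**Figure D5:**
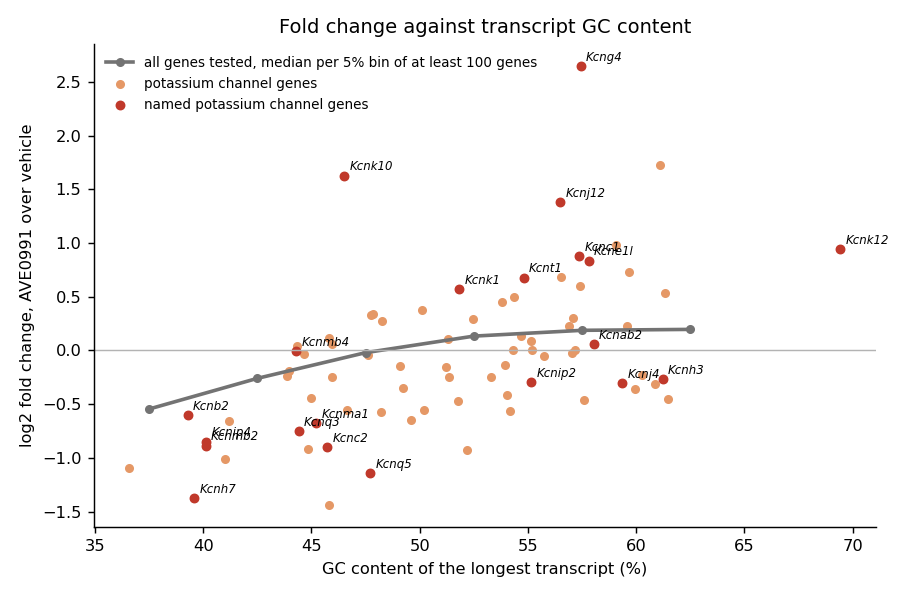
Log2 fold change, AVE0991 over vehicle, against GC content of the longest transcript in percent, for the 78 channel genes (orange; named genes in red) and as the median of all genes tested in bins of GC content (grey line). Both run from values below 0 at low GC to values above 0 at high GC, with rho of 0.516 for the channel genes.

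Genes that work with these channels were described from a list of 37: membrane partners and scaffolds, sulfonylurea receptors, calmodulins, HCN channels, ion pumps and cotransporters, and the 4 inward rectifiers left out above. Of the 35 tested, 0 passed edgeR's test. At an unadjusted p under 0.05, 5 were higher and 2 lower, against 10.9% and 12.7% of all genes, and DESeq2 called 2 higher and 2 lower, against 5.39% and 7.11% of all genes. With AVE0991 replicate 1 left out, edgeR called 5 partner genes, higher and lower together, against 6.63% of all genes higher and 4.76% lower. The log2 fold change was above 0 for 19 and below for 16, and the median was 0.07. Dpp10 and Dlg2 were among the 3 with the smallest p-values. Dpp10, an auxiliary partner of Kcnd channels, had 93.5, 62.0 and 86.5 CPM in AVE0991 libraries, compared with 161, 117 and 121 CPM in vehicle libraries, a log2 fold change of -0.72 ± 0.19 (SE; adjusted p = 0.113 in edgeR's test). Dlg2, a scaffold of Kcna channels, had 405, 269 and 379 CPM in AVE0991 libraries, compared with 863, 475 and 563 CPM in vehicle libraries. For both genes the AVE0991 libraries lay below all 3 vehicle libraries. Of the 35 partner genes tested, 4 were lower without overlap and 4 higher without overlap, against 16.3% and 14.3% of all genes. The log2 fold change of Dlg2 was -0.85, and -0.70 after correction for GC content. That of Dpp10 was -0.25 after this correction.

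The authors' deposited table gave a q-value for 89 of the 90 genes, with the fold change as AVE0991 over vehicle. In the authors' deposited table, 3 genes were higher at a q-value under 0.05 (Kcnj12, Kcnk10 and Kcnk12), against 1.78% of all genes, and 5 were lower (Kcnh7, Kcnc2, Kcnq3, Kcnmb2 and Kcnip4), against 2.93%. The smallest q-value in the authors' deposited table was that of Kcnh7, 0.000372, with a log2 fold change of -1.35. The authors' deposited table gave Kcng4 a log2 fold change of 2.66 with a q-value of 0.0968.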

How the data were processed

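RNA was extracted from cells labelled adult astrocytes, depleted of ribosomal RNA and copied with dUTP in the second strand, per the labels' protocols. Reads were aligned with HISAT to mm9, per the submitters' processing notes. Which program counted reads, by which annotation and whether by strand is not given in these sources. The authors deposited estimated counts and FPKM values per gene and library, in 1 table with no pooling. A second table held the authors' log2 fold change, p-value and q-value per gene; per the file headers these came from DESeq2. Symbols were those of the tables, and the GRCm38 reference, another build, served for GC content, coding sequences and exon overlaps only.

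The estimated counts were rounded and tested in R 4.3.3 with edgeR 4.0.16 (filterByExpr, TMM, robust quasi-likelihood F test, no covariates), with Benjamini-Hochberg adjustment over 20363 genes and a call threshold of 0.05. Standard errors were obtained as the size of the log2 fold change over the square root of its F statistic. TMM library sizes were used for CPM values. DESeq2 1.42.0, limma 3.58.1, other filters, a GC correction with a smoothing spline of 8 degrees of freedom per library and fits without single libraries were alternatives. GC content was known for 16858 of the genes tested and for all 90 channel genes. For limma on log2 FPKM a pseudocount of 0.1 was added. The test was also run on simulated counts with the same variation between libraries for every gene and no library set apart from its group. These data differ in both respects, so that run does not show how the test behaves on them. No pair of libraries was alike within sampling noise: chi-square per gene was 16.4 or more among genes holding at least 20 counts. Circular RNA rows name no host gene and were not analysed here for these channels.

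The named genes were the 8 with the smallest p in each direction, the 8 with the highest mean FPKM and the most abundant gene of each of 8 groups, plus the 3 partner genes with the smallest p; a few items that this rule names are not reported here. Other genes named with values were chosen after their values were seen. The members, gene lists and marker lists were chosen with earlier results of these data known.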

Additional observations from a re-analysis of the deposited data

How the results depend on the processing

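Of 357 log2 fold changes of 21 named genes under the alternatives, 306 kept their direction and their side of the threshold, 29 passed the threshold and 22 changed sign. For channel genes called higher and lower, DESeq2 gave 5 and 7, limma-voom with quality weights 1 and 4, and no filter on low counts 2 lower; leaving out single libraries gave 0 to 12 higher and 0 to 11 lower. For all genes, higher and lower, DESeq2 gave 1012 and 1335, limma-voom 449 and 721, a filter at a mean of 1 CPM 18 and 328, no filter 58 and 379, GC correction 1 and 1, and one fit with circular RNA rows 1 and 1. Limma on FPKM gave 287 lower. The fit without AVE0991 replicates 2 and 3 gave 0 and 0, and leaving out single libraries 0 to 1386 and 0 to 995. Partner genes called were 4 with DESeq2 and 0 to 5 without single libraries. The median of the channel genes was -0.18 with GC correction, -0.15 with limma on FPKM, -0.040 with no filter, and -0.15 to -0.067 without single libraries. Replicate numbers are not said to pair libraries, and same-numbered libraries had correlations of -0.02, 0.09 and -0.35; with a replicate block, all genes called were 0 and 0 and the median was -0.13, and with the block and GC correction 0 and 0 and -0.18. Without AVE0991 replicates 2 and 3 the log2 fold change reversed for Kcnc1 (-0.13), Kcng4 (-0.28), Kcnk10 (-0.27), Kcnh3 (0.45), Kcnip2 (0.55), Kcnj4 (0.56) and Kcnmb4 (0.019). Without single libraries it ran from -0.82 to 0.17 for Kcnh3, -1.01 to 0.15 for Kcnip2, -1.06 to 0.16 for Kcnj4, -0.23 to 0.21 for Kcnmb4 and -0.014 to 0.16 for Kcnab2. Kcnab2 was -0.15 with GC correction, -0.022 with limma on FPKM and -0.15 with the block and GC correction. Kcnmb4 was 0.0068 with DESeq2 and with its size factors in edgeR, 0.013 with no filter, 0.15 with GC correction, 0.12 with the block too, and 0.19 with limma-voom. The cause of these changes was not tested. The common biological coefficient of variation between libraries was 24.7%.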
